A study of Mus musculus with 30 samples.

Results

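The 9 genes described here were 8 genes that neutrophils are known for, *S100a8*, *S100a9*, *Lcn2*, *Mmp8*, *Ngp*, *Retnlg*, *Cxcr2* and *Csf3r*, together with *Csf3*, the gene of granulocyte colony-stimulating factor. They were picked by name, and their values were read from the gene table of total muscularis externa (*ME*) RNA and, summed over the transcripts of each gene, from the transcript tables of the *RiboTag* pulldown. All 9 were listed among the 24601 genes of the *ME* table and 8 of them among the 26179 genes of the *RiboTag* tables, where *Ngp* was not listed. *S100a8* and *Csf3* were listed in the *RiboTag* tables of IM3h and IM24h but not in that of IM72h, so that no *RiboTag* value is given for them at IM72h.

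The study followed postoperative ileus, the loss of gut movement after abdominal surgery, in mice whose small bowel was mechanically manipulated (intestinal manipulation, IM) and whose *ME*, the muscle layer with its nerve plexus, was taken 3 h, 24 h or 72 h later (IM3h, IM24h, IM72h) or without surgery (naïve). All mice carried the *Rpl22* allele B6N.129 Rpl22tm1.1Psam/J, which puts an HA tag on ribosomes in cells with Cre. Total *ME* RNA was sequenced from 3 naïve, 3 IM3h, 4 IM24h and 4 IM72h libraries, and mRNA pulled down with anti-HA antibody (*RiboTag*) from 3 naïve libraries in the tables, of 4 in the labels, and from 4 libraries at each later time. The *RiboTag* libraries of every time point and the total RNA of IM24h and IM72h came from the line B6 Tg(Sox10-icre/ERT2)388Wdr/J, in which the *Sox10* promoter drives a tamoxifen-dependent Cre that in the gut wall is active in enteric glia. The total RNA of naïve and IM3h came from B6.Cg-Tg73.12Mvs/J(Gfap-cre) mice instead, so that in total *ME* RNA the step from naïve or IM3h to IM24h or IM72h cannot be told apart from the change of Cre line. IM3h against naïve and IM72h against IM24h were compared within 1 line. The age of the mice was not in the labels, and the labels number the libraries of a group without naming the mouse, so that p-values measure the spread between these libraries.

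Neutrophils are short-lived white blood cells that leave the blood for injured tissue and are guided there by CXC chemokines that bind the receptor CXCR2. Granulocyte colony-stimulating factor, the product of *Csf3*, drives their production in the bone marrow through its receptor, the product of *Csf3r*, and is itself made by stromal, endothelial and myeloid cells exposed to IL-1, IL-17 or TNF. Mature neutrophils hold large amounts of the calcium-binding proteins S100A8 and S100A9 in their cytosol, and carry granule proteins such as lipocalin-2 (*Lcn2*), the collagenase MMP8 and neutrophilic granule protein (*Ngp*), whose transcripts are made mostly while the cells mature in the marrow.

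The sequences upstream of these genes are shown because 8 of the 9 genes have an entry among the 32851 RefSeq promoters (build GRCm38.p6), and because C/EBP and PU.1 factors are the known regulators of granulocyte genes. Within 250 bases before the start that RefSeq gives, the C/EBP letters TTGCNNAA, read on both strands, were present in 5 of 8 (*Lcn2*, *Mmp8*, *Ngp*, *Retnlg*, *S100a9*) and in 9.56% of all promoters. The PU.1 core GAGGAAG was present in 4 of 8 (*Csf3r*, *Lcn2*, *Mmp8*, *S100a8*) and in 10.6% of all promoters. The AP-1 letters TGANTCA, the STAT letters TTCNNNGAA and the NF-kB consensus were found in 0 of 8, against 6.75%, 7.02% and 3.9% of all promoters. Both *Lcn2* matches, the *Csf3r* match and 1 of the 2 *Ngp* matches lie inside the gene as the mm10 annotation draws it, which starts earlier there. The matches in these promoters do not overlap one another, and a match is a description of letters and not of binding. The bases upstream of 4 of the genes (157 for *S100a8*, up to its annotated start, and 250 for the others) are given 5′ to 3′ on the gene's strand, with the C/EBP and PU.1 matches in capitals. They lie at chr3:90668821-90668977 (plus strand, *S100a8*), chr3:90695722-90695971 (minus strand, *S100a9*), chr9:7558179-7558428 (plus strand, *Mmp8*) and chr16:48872358-48872607 (plus strand, *Retnlg*).
S100a8: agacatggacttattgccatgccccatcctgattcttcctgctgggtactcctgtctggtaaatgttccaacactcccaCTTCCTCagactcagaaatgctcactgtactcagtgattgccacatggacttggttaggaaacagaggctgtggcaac
S100a9: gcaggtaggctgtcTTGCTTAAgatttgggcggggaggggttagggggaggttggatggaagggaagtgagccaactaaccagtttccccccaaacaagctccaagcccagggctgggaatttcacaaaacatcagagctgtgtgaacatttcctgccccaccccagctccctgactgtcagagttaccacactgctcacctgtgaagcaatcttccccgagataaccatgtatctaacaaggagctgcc
Mmp8: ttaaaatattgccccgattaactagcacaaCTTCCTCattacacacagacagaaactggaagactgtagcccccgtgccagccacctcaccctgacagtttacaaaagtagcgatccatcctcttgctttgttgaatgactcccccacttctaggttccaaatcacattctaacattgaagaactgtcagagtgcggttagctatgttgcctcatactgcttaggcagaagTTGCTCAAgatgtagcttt
Retnlg: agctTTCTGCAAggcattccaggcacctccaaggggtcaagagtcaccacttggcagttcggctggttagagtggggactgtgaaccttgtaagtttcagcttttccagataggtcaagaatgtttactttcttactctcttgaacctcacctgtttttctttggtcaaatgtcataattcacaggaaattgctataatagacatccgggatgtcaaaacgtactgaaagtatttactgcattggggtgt

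The *S100a8* gene (chr3:90668978-90670035) and the *S100a9* gene (chr3:90692632-90695721) lie 22596 bases apart on chromosome 3 on opposite strands in the mm10 annotation, while the other genes lie on separate chromosomes except for *Mmp8* (chr9:7558456-7568485) and *Ngp* (chr9:110419747-110423012). *Lcn2* is at chr2:32384633-32388252, *Csf3* at chr11:98701263-98703629, *Csf3r* at chr4:126024550-126044440, *Cxcr2* at chr1:74153989-74161246 and *Retnlg* at chr16:48872621-48874496.

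The libraries held 6603170 to 12866062 counts in total *ME* RNA and 3010306 to 7899493 in *RiboTag* mRNA. *AY036118*, a gene that overlaps ribosomal RNA, took 16.1% to 33.5% of the counts in naïve *ME*, 24.06% to 25.1% at IM3h, 1.33% to 6.50% at IM24h and 2.34% to 3.69% at IM72h. In *RiboTag* mRNA it took 2.68% to 13.98%, 2.02% to 10.3%, 22.2% to 59.2% and 58.0% to 80.1%. The part of this share in the results was not tested. Levels below are in CPM, counts scaled to a common library size with edgeR's TMM factors, and libraries are numbered within a group only to name them. The summed level of 6 smooth muscle markers was 19468 to 20952 CPM in naïve *ME*, and that of 7 glial markers was 118 to 139 CPM in naïve *ME* and 1544 to 1868 CPM in naïve *RiboTag* mRNA.

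In total *ME* RNA the neutrophil genes were at or near 0 in naïve mice, and most of them were higher after IM. At 3 h, *S100a8*, *S100a9*, *Lcn2* and *Mmp8* rose past the test. *Cxcr2*, *Retnlg* and *Csf3* did not pass the filter on low counts at 3 h, and were called there without it (adjusted p = 0.0191, 0.0201 and 0.00159, edgeR) and by DESeq2 (0.0218, 0.0249 and 6.51e-05), so the calls give no order of onset. At 24 h *Lcn2* reached 149 ± 73.8 CPM (SD, n = 4), from 1.03 ± 0.230 CPM (SD, n = 3) in naïve mice. At 72 h most levels had come down again, but *Retnlg* then stood at its highest mean. *Csf3*, the cytokine gene, had its highest mean at 3 h and was nearly gone at 72 h. In bulk RNA, more cells of a type and more RNA per cell cannot be told apart.

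*S100a8* and *S100a9* encode the subunits of calprotectin, an abundant cytosolic protein of neutrophils. *S100a8* had 1, 1 and 0 counts in the naïve libraries, 8.58, 11.5 and 5.48 CPM at IM3h, 9.87, 35.2, 58.6 and 14.2 CPM at IM24h, and 9.23, 3.23, 3.17 and 4.15 CPM at IM72h. Every library after IM was above every naïve library, and the IM72h libraries were all below the IM24h libraries. The level at IM3h was 91.6 times the naïve level (95% counting interval 25.0 to 762, from 2 naïve counts), at IM24h 322 times (88.9 to 2661) and at IM72h 51.0 times (13.97 to 423). Without naïve library 2 these folds were 143, 503 and 79.6, without naïve library 3 they were 55.9, 196 and 31.1, and without IM24h library 3 the fold at IM24h was 209.7. These intervals cover counting error only. In edgeR's quasi-likelihood test with Benjamini-Hochberg adjustment over all genes, the log2 fold change was 6.28 (SE 0.65, adjusted p = 6.35e-05) at IM3h, 8.07 (SE 0.998, adjusted p = 3.79e-04) at IM24h and 5.50 (SE 0.79, adjusted p = 1.53e-04) at IM72h.

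*S100a9* also had its highest mean at IM24h. It had 1, 1 and 3 counts in the naïve libraries, 13.6, 14.9 and 11.95 CPM at IM3h, 35.8, 76.2, 122.05 and 26.0 CPM at IM24h, and 32.5, 10.4, 14.9 and 9.80 CPM at IM72h. All libraries after IM lay above the naïve ones, and all IM24h libraries lay above all IM3h libraries. Unlike those of *S100a8*, the IM72h libraries overlapped the IM24h ones, and their mean was 16.9 CPM, against 13.5 CPM at IM3h. The level was 57.5 times the naïve level at IM3h (interval 24.3 to 179), 285 times at IM24h (122 to 879) and 68.9 times at IM72h (29.4 to 213), and without naïve library 3 it was 87.7, 435 and 105.0 times. The edgeR log2 fold changes were 5.79 (SE 0.40, adjusted p = 4.66e-06), 8.02 (SE 0.79, adjusted p = 1.52e-04) and 6.06 (SE 0.70, adjusted p = 3.43e-05).

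*Lcn2* encodes lipocalin-2, a protein of neutrophil granules that binds bacterial siderophores and is also made by epithelial and stromal cells under inflammation. It was the 1 gene of the 9 with more than 3 counts in every naïve library, 0.966, 1.29 and 0.846 CPM from 8, 6 and 7 counts. It rose to 18.3, 21.8 and 9.79 CPM at IM3h and to 84.2, 208, 218 and 86.4 CPM at IM24h, and stood at 67.2, 46.9, 33.1 and 43.7 CPM at IM72h. The groups were separate at each step, IM24h above IM3h and IM72h between them. The mean was 16.1 times the naïve mean at IM3h, 144 times at IM24h and 46.2 times at IM72h, with edgeR log2 fold changes of 4.09 (SE 0.39, adjusted p = 3.80e-05), 7.20 (SE 0.53, adjusted p = 4.30e-05) and 5.54 (SE 0.33, adjusted p = 5.94e-07).

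The other granule genes behaved differently. *Mmp8*, the neutrophil collagenase, had 1, 1 and 0 naïve counts, 2.25, 3.68 and 3.49 CPM at IM3h, 1.41, 2.90, 3.73 and 1.95 CPM at IM24h, and 1.68, 0.601, 0.904 and 0.519 CPM at IM72h. Its groups at IM3h and IM24h overlapped, and it rose past the edgeR test at IM3h (log2 fold change 4.83, SE 0.73, adjusted p = 7.46e-04) and at IM24h (4.48, SE 0.998, adjusted p = 0.00783). Without naïve library 3 these were 4.16 and 3.85, and without library 2 the change at IM24h was 5.07, all still past the test. At IM72h it did not pass the filter on low counts, and without that filter its adjusted p was 0.0113 (0.00932 to 0.056 over the alternatives), with a level 9.44 times the naïve one (interval 2.48 to 80.2; 14.7 times without naïve library 2 and 5.76 without library 3). *Ngp*, a granule gene of marrow precursors, had 0 counts in every naïve and IM3h library, 10 counts in library 3 of IM24h and 4 in library 3 of IM72h, and 0 in the remaining libraries. It passed the filter in no comparison, and 3 counts over the naïve group would correspond to a level that the IM24h mean exceeds by at least 1.75-fold, from that 1 library.

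*Retnlg*, which encodes the resistin-like molecule gamma found in granulocytes, was the 1 member whose mean was highest at 72 h. It had 1, 1 and 0 counts in naïve libraries and 2.11, 1.18 and 0.996 CPM at IM3h. At IM24h its libraries were split, with 0.188, 3.89, 4.73 and 0.458 CPM, and overlapped the naïve ones. At IM72h they stood at 6.88, 3.01, 8.14 and 4.41 CPM, all above naïve and IM3h. The edgeR log2 fold change at IM72h was 5.69 (SE 0.70, adjusted p = 5.51e-05), or 6.28 without naïve library 2 and 5.04 without library 3, both past the test. At IM3h and IM24h *Retnlg* did not pass the filter, and without it the adjusted p was 0.0201 (0.0201 to 0.0503 over the alternatives) and 0.0494 (0.0083 to 0.16).

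*Cxcr2* encodes the receptor for the CXC chemokines that guide neutrophils. It had 1, 0 and 3 naïve counts, 1.69, 1.47 and 1.99 CPM at IM3h, 2.91, 16.2, 17.4 and 2.75 CPM at IM24h, and 2.27, 0.827, 1.28 and 1.04 CPM at IM72h. Every IM24h library was above every IM3h and every IM72h library. The edgeR log2 fold change against naïve was 5.62 (SE 1.05, adjusted p = 0.00318) at IM24h and 2.75 (SE 0.73, adjusted p = 0.00735) at IM72h, or 6.76 and 3.92 without naïve library 3, both past the test. At IM3h the gene did not pass the filter, and without it the adjusted p was 0.0191 (0.0181 to 0.0557 over the alternatives), at a level 9.05 times the naïve one (interval 3.23 to 35.1), or 22.1 times without naïve library 3.

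*Csf3r* encodes the receptor for the product of *Csf3*. It had 3, 1 and 1 naïve counts and 0.281, 1.03 and 1.16 CPM at IM3h, overlapping the naïve 0.362, 0.215 and 0.121 CPM. At IM24h it stood at 3.29, 12.4, 8.45 and 0.802 CPM, and at IM72h at 5.12, 1.95, 3.39 and 1.88 CPM, all above naïve. The edgeR log2 fold change was 4.64 (SE 1.02, adjusted p = 0.00741) at IM24h and 3.61 (SE 0.63, adjusted p = 5.73e-04) at IM72h, while at IM3h the gene did not pass the filter and had an adjusted p of 0.284 without it (0.284 to 0.285 over the alternatives).

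*Csf3* had its highest mean at IM3h, earlier than its receptor. It had 0 counts in each of the 3 naïve libraries, 24, 35 and 2 counts at IM3h (3.38, 5.16 and 0.332 CPM), 13, 3, 17 and 3 counts at IM24h (1.22, 0.300, 1.54 and 0.344 CPM), and 1, 0, 0 and 1 counts at IM72h. Library 3 of IM3h was below libraries 1 and 3 of IM24h, so that the groups overlapped. Taking 3 counts over the naïve group as the floor, the level was at least 21.7-fold higher at IM3h and at least 6.30-fold higher at IM24h, and at IM72h both groups were at or under the floor. The bound at IM3h was 13.998-fold without IM3h library 2, and without naïve library 1 or 3 the bounds were 13.2-fold and 3.84-fold. *Csf3* did not pass the filter in these comparisons. Without the filter the edgeR adjusted p was 0.00159 at IM3h (6.51e-05 to 0.0277 over the alternatives), 0.0602 at IM24h (0.0153 to 0.136) and 0.428 at IM72h.

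**Figure D1:**
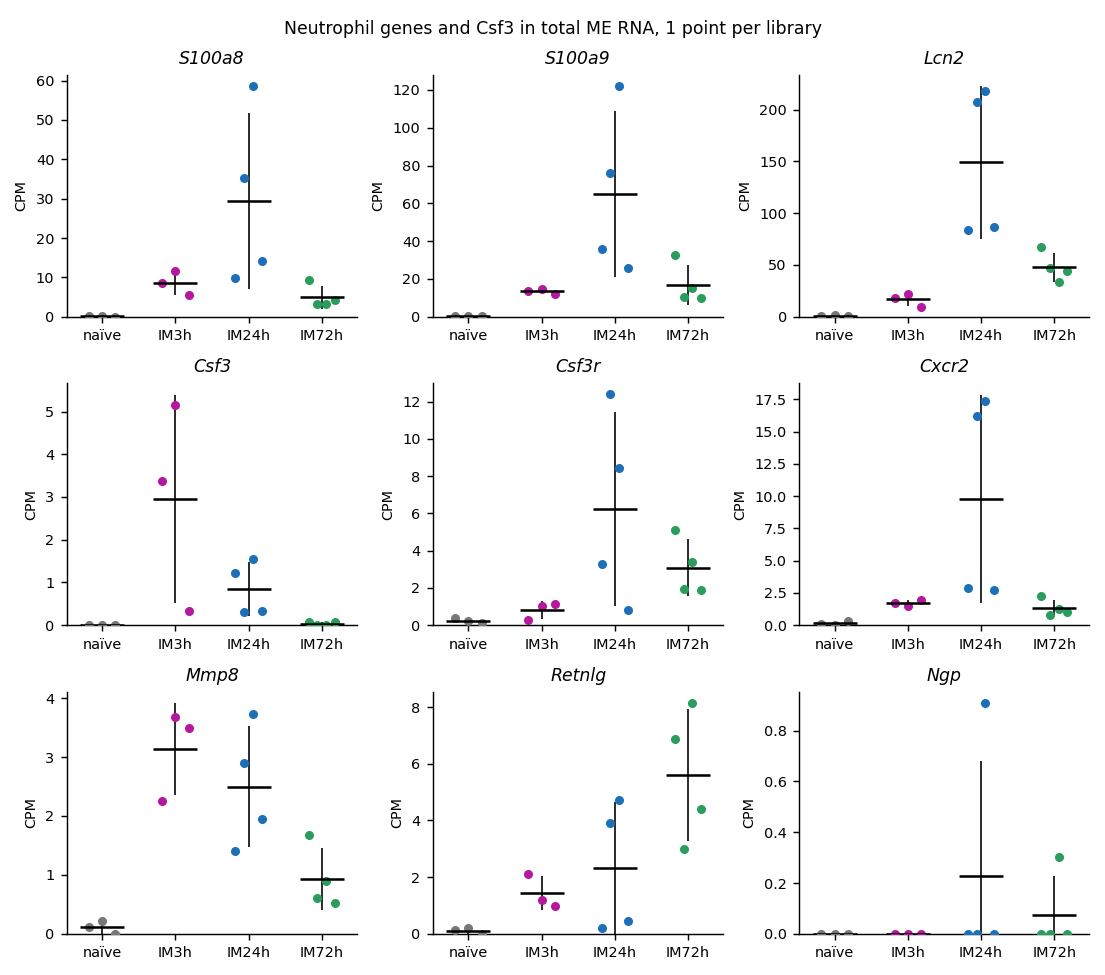
Levels of the 9 genes in total ME RNA in CPM, 1 point per library, in naïve (n = 3), IM3h (n = 3), IM24h (n = 4) and IM72h (n = 4) mice, where the horizontal bar is the mean and the vertical line 1 SD, cut at 0. *Csf3* has its highest mean at IM3h, *Retnlg* at IM72h, and most of the others at IM24h, where the libraries lie far apart.

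Counting the calls, 4 of 9 genes rose past the test at IM3h, where 19.3% of all genes tested were called higher, 6 of 9 did so at IM24h, where 15.6% were, and 6 of 9 at IM72h, where 29.3% were. Without the filter and with DESeq2 it was 7 and 7 of 9 for the first time, 7 and 8 for the second and 7 and 7 for the third. 0 of 9 fell at any time, where 13.4%, 13.4% and 28.3% of all genes tested were called lower. With so few naïve counts most members could pass the filter only where they were high after IM, so these counts are descriptions. Each of the 3 times had 7 of 9 genes with every library above every naïve library, as had 23.4%, 20.1% and 31.1% of all genes tested. The genes that were not separate from naïve were *Csf3r* and *Ngp* at IM3h, *Retnlg* and *Ngp* at IM24h, and *Csf3* and *Ngp* at IM72h. In every IM comparison with naïve, scaling by *Actb*, *Hsp90ab1* and *Rplp1* put the median of all genes at -0.41, -0.35 and -0.58 and scaling by the library total put it at -0.26, 0.66 and 0.62 on the log2 scale, against 0.00, 0.02 and 0.02 with TMM.

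The 4 IM24h libraries lay far apart for most of the genes. The summed level of the 9 genes was 139, 355, 435 and 133 CPM in libraries 1 to 4, and libraries 2 and 3 were the highest for *S100a8*, *S100a9*, *Lcn2*, *Csf3r*, *Cxcr2*, *Mmp8* and *Retnlg*. *Csf3* alone was high in libraries 1 and 3. The summed macrophage markers, 563.88, 486.84, 603.7 and 754.43 CPM, and epithelial markers, 89.4, 73.7, 156 and 225 CPM, were not in that order in the same libraries, and the smooth muscle markers were lowest in libraries 2 and 3 with 3102 and 5148 CPM, against 8157 and 9373 CPM in libraries 1 and 4. The part of these differences in the IM24h values was not tested.

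The steps between time points asked which genes went on changing. From IM3h to IM24h, 5 of the 8 members that passed the filter rose, where 14.2% of all genes tested were called higher, and 0 fell, where 13.4% were called lower. *Lcn2* rose most clearly (log2 fold change 3.20, SE 0.44, adjusted p = 7.54e-04, edgeR), followed by *S100a9* (2.30, SE 0.48, adjusted p = 0.00629). These calls were kept in every alternative. *Cxcr2* (2.54, SE 0.74, adjusted p = 0.0281), *Csf3r* (2.95, SE 0.91, adjusted p = 0.0348) and *S100a8* (1.82, SE 0.57, adjusted p = 0.0378) were called by edgeR as well, but not when scaled by *Actb*, *Hsp90ab1* and *Rplp1* (adjusted p = 0.0632, 0.0702 and 0.0912, within ranges of 0.00245 to 0.102, 0.00422 to 0.120 and 0.00387 to 0.139 over the alternatives). Leaving out any 1 of the 3 IM3h libraries ended all 3 of these calls in edgeR, with adjusted p of 0.0811 to 0.102 for *Cxcr2*, 0.0829 to 0.120 for *Csf3r* and 0.0760 to 0.139 for *S100a8*. Leaving out IM24h library 2 or 3 left 2 members called, since it ended the calls of *Cxcr2* (adjusted p = 0.0595 and 0.0749, edgeR) and *S100a8* (0.0695 and 0.0981) and *Csf3r* then did not pass the filter. With IM24h library 1 left out, 4 members were called, and *Csf3r* again did not pass the filter.

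*Mmp8* (log2 fold change -0.28, adjusted p = 0.728, edgeR), *Retnlg* (0.72, adjusted p = 0.6249) and *Csf3* (-1.73, SE 0.91, adjusted p = 0.181) did not pass the test between IM3h and IM24h. For *Mmp8* the sign depended on the scaling, with a log2 fold change of 0.51 on library totals. *Csf3* was 3.47 times lower at IM24h by its means, or 2.18 times without IM3h library 2, with overlapping libraries. The 3 members *S100a9*, *Lcn2* and *Cxcr2* had every IM24h library above every IM3h library, as had 18.6% of all genes tested. This step also changes the Cre line.

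From IM24h to IM72h, both in the *Sox10* line, 4 of the 7 members that passed the filter fell, where 19.9% of all genes tested were called lower, and 0 rose, where 18.6% were called higher. Without the filter 5 fell, and 6 with DESeq2. *Cxcr2* fell by 2.90 on the log2 scale (SE 0.66, adjusted p = 0.00571, edgeR), *S100a8* by 2.62 (SE 0.56, adjusted p = 0.00395), *S100a9* by 1.98 (SE 0.51, adjusted p = 0.0105) and *Lcn2* by 1.68 (SE 0.35, adjusted p = 0.00315). *Csf3* did not pass the filter and without it had a log2 fold change of -4.16 (adjusted p = 0.0242, 0.0064 to 0.0242 over the alternatives), with a level 24.02 times lower (counting interval 6.18 to 206), or 37.4 times without IM72h library 1. Every IM72h library was below every IM24h library for *S100a8*, *Lcn2*, *Csf3* and *Cxcr2*, 4 of 9 members, against 17.6% of all genes tested.

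The 3 members that did not fall past the test were *Csf3r* (log2 fold change -1.06, adjusted p = 0.234, edgeR), *Mmp8* (-1.47, adjusted p = 0.0567) and *Retnlg* (1.23, adjusted p = 0.227). *Csf3r* passed with IM24h library 4 left out (adjusted p = 0.0394, the lowest of a range up to 0.600 over the alternatives). *Mmp8* passed with DESeq2 (adjusted p = 0.0403), with all groups in 1 fit (0.0431), with scaling by *Actb*, *Hsp90ab1* and *Rplp1* (0.0466), and without IM24h library 1 (0.0349) or IM72h library 1 (0.0421) in edgeR, within a range of 0.0349 to 0.161.

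**Figure D2:**
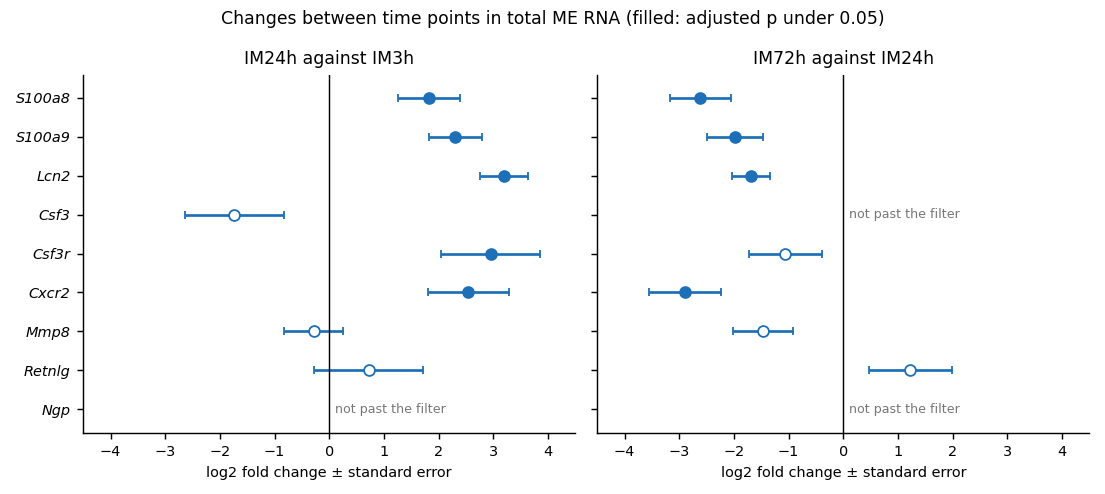
The log2 fold change between consecutive time points in total ME RNA, with its standard error from edgeR, for the 8 (left) and 7 (right) of 9 genes that passed the filter, the others being marked as not past it. Filled points have an adjusted p under 0.05. On the left, *Lcn2*, *S100a9*, *Cxcr2*, *Csf3r* and *S100a8* lie to the right of 0 with filled points. On the right, *S100a8*, *S100a9*, *Lcn2* and *Cxcr2* lie to the left of 0, and *Retnlg* stands apart on the other side with an open point.

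Ratios of counts within 1 library do not depend on the library's total. The cells that these counts came from were not resolved in bulk RNA. Each *S100a8* count went with 1.59, 1.29 and 2.18 *S100a9* counts at IM3h, with 3.63, 2.17, 2.08 and 1.83 at IM24h, and with 3.52, 3.23, 4.71 and 2.36 at IM72h. The *Retnlg* counts per *S100a9* count were 0.155, 0.0792 and 0.0833 at IM3h, then 0.00525, 0.0511, 0.0387 and 0.0176 at IM24h, but 0.212, 0.288, 0.545 and 0.450 at IM72h. They rest on only 15, 8 and 6 *Retnlg* counts at IM3h and 2, 39, 52 and 4 at IM24h. The step between these times also changes the Cre line. The ranges of the 3 times did not overlap for *Retnlg* per *S100a9*, whereas for *S100a9* per *S100a8* those of IM3h and IM72h were separate and that of IM24h overlapped both. The pair was looked at after the values were seen, and no test was made.

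**Figure D3:**
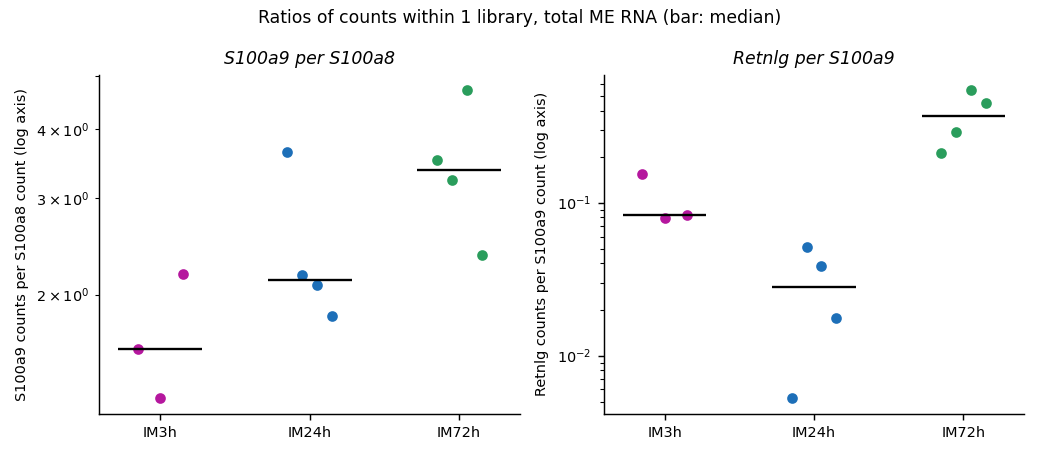
Counts of *S100a9* per count of *S100a8* (left) and of *Retnlg* per count of *S100a9* (right) in each IM library of total ME RNA on log axes, with the median of each time as a bar. *Retnlg* per *S100a9* is lowest at IM24h (0.00525 to 0.0511, from 2 to 52 *Retnlg* counts) and highest at IM72h (0.212 to 0.545).

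Likeness of courses was measured as the root mean square distance of centred log2 CPM over the 14 *ME* libraries among 17919 genes, a description in which all points share libraries. The genes closest to *S100a9* were *S100a8* (0.64), *Lcn2* (0.68), *Il1rn* (0.82), *Fpr2* (0.89) and *Clec4e* (0.92). The other members were further away, *Cxcr2* at 1.20, *Csf3r* at 1.57, *Mmp8* at 1.59, *Retnlg* at 1.92 and *Csf3* at 2.26. The genes closest to *Csf3* were *Adamts1* (0.71), *Dusp1* (0.72), *Kcne4* (0.77), *Nipal1* (0.77) and *Tnfaip3* (0.78), none of them a neutrophil gene of the lists used here.

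The wider lists put the 9 genes beside other genes of the cells that carry them. Of 17 neutrophil surface genes 15 were listed, 5 of them with 0 counts in every naïve library, and in edgeR IM3h had 7 that rose, IM24h had 13 and IM72h had 11, while 0 fell. Of all genes tested 19.3%, 15.6% and 29.3% were called higher. Genes this low in naïve mice pass the filter only where they are high after IM, so the counts are descriptions. *Clec4d*, a C-type lectin of myeloid cells with 0 naïve counts, was at least 20.9-fold, 48.1-fold and 22.6-fold higher at the 3 times, against 3 counts over the naïve group, and without naïve library 1 at least 12.8-fold, 29.3-fold and 13.75-fold (12.8, 29.4 and 13.76 without library 3). *Trem1*, an amplifying receptor of neutrophils and monocytes with 1 naïve count, was 36.2 times (counting interval 6.07 to 1472), 154 times (27.5 to 6119) and 51.9 times (9.16 to 2067) the naïve level, or 22.1, 94.1 and 31.7 times without naïve library 1. Library 3 held its 1 naïve count. *Il1r2*, the decoy receptor of IL-1, rose by 4.37, 4.95 and 4.82 on the log2 scale. Several of these genes are also used by monocytes and macrophages, and the summed macrophage markers went from 209 to 229 CPM in naïve *ME* to 487 to 754 at IM24h and 1387 to 1691 at IM72h, and the monocyte markers from 38.4 to 45.3 CPM to 197 to 274 and 151 to 201. Their part in the surface genes was not tested.

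Among 14 granule genes, 8 were tested at each time and 4, 4 and 5 of them rose, where 19.3%, 15.6% and 29.3% of all genes tested did. *Chil3*, which neutrophils share with alternatively activated macrophages and monocytes, rose by 5.19, 8.0004 and 4.46 on the log2 scale (edgeR). *Slpi*, a secreted protease inhibitor that epithelium also makes, had log2 fold changes of -3.47 at IM3h and -2.501 at IM72h, both past the test. *Camp*, a granule gene of marrow precursors like *Ngp*, had log2 fold changes of 0.15, -0.23 and -0.29, none past the test. The median of the list was 0.53, 1.61 and 1.61. Its summed level was 157 to 260 CPM in naïve *ME*, 93.1 to 145 at IM3h, 192 to 839 at IM24h and 215 to 314 at IM72h. Of 12 cytosolic genes, 5, 7 and 7 were tested, of which 3 rose and 2 fell at IM3h, 5 rose and 1 fell at IM24h, and 4 rose at IM72h. The share of all genes tested that was called lower was 13.4%, 13.4% and 28.3%. The cytosolic genes summed to 268 to 314 CPM in naïve *ME*, 191 to 221 at IM3h, 215 to 347 at IM24h and 292 to 379 at IM72h. *Hdc*, which makes histamine and is expressed in neutrophils and mast cells, rose by 4.05, 4.78 and 3.75.

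The marker genes of neutrophils themselves summed to 1.93 to 2.90 CPM in naïve *ME*, 26.6 to 34.9 at IM3h, 47.4 to 218 at IM24h and 21.2 to 58.9 at IM72h, with 9 of 10 markers listed and *Ngp* at 0 in naïve and IM3h. 7 of these 10 markers are members, so the sum largely restates them. *Ly6g*, the surface protein commonly used to sort neutrophils, *Mpo* and *Elane* were not listed in the *ME* table. Of the eosinophil markers 3 of 4 were listed, and their sum was at most 2.86 CPM in any library.

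Of the chemokines that bind CXCR2, *Cxcl1*, *Cxcl2* and *Cxcl5* rose at IM3h and then parted, while *Cxcl3* and *Ppbp* did not pass the filter there. *Cxcl1* stood at 0.241, 0.645 and 0.242 CPM in naïve *ME*, at 52.5, 71.9 and 42.5 at IM3h, at 14.005, 30.1, 34.5 and 7.9 at IM24h, and at 3.44, 1.43, 1.06 and 2.53 at IM72h. Its edgeR log2 fold change against naïve was 7.36 (adjusted p = 5.06e-07), 5.94 (3.15e-04) and 2.57 (0.00498), and it fell by 1.32 from IM3h to IM24h (adjusted p = 0.0397, 0.00796 to 0.329 over the alternatives) and by 3.39 from IM24h to IM72h (5.28e-04). Its mean, like that of *Csf3*, was highest at IM3h, whereas that of *Cxcr2* was highest at IM24h. *Cxcl2* rose by 6.50 and 6.24 on the log2 scale at IM3h and IM24h (adjusted p = 3.84e-05 and 0.00210, edgeR) and had 1.57 at IM72h (0.182).

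*Cxcl5* was still high at IM72h. It stood at 0.0, 0.43 and 0.121 CPM in naïve *ME*, at 14.5, 15.5 and 12.8 at IM3h, at 61.0, 56.9, 53.4 and 20.2 at IM24h, and at 89.6, 43.2, 45.0 and 57.8 at IM72h. Its edgeR log2 fold changes were 6.51 (adjusted p = 1.23e-05), 8.24 (6.24e-05) and 8.55 (7.59e-07). It rose further by 1.79 from IM3h to IM24h (adjusted p = 0.00399, edgeR), and the difference between IM72h and IM24h was 0.26 (0.5677). Of the 5 ligands, 3, 5 and 3 passed the filter at the 3 times and 3, 4 and 2 rose, where 19.3%, 15.6% and 29.3% of all genes tested were called higher, and 3 fell from IM24h to IM72h, where 19.9% were called lower.

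The signals known to induce *Csf3* rose together at IM3h. Of 10 listed genes, 9 of 9 tested rose at IM3h (median log2 fold change 2.43), 9 of 9 at IM24h (2.15) and 6 of 8 at IM72h (1.71), where 19.3%, 15.6% and 29.3% of all genes tested rose and their medians were 0.00, 0.02 and 0.02. *Il1b* rose by 4.56, 6.17 and 3.29 on the log2 scale and *Tnf* by 4.47 and 5.35 at IM3h and IM24h. *Cebpd*, a transcription factor of the acute phase, rose by 5.33, 3.32 and 1.57. Among 8 cytokines that act on granulocyte production, *Il6* rose by 6.05 at IM3h and 5.90 at IM24h, *Csf1* by 1.93, 1.33 and 0.97, and 3 of 4 tested rose at IM3h, 3 of 4 at IM24h and 2 of 3 at IM72h. The chemokine gene *Cxcl12*, which holds neutrophils in the marrow, was lower at IM3h (-0.54, adjusted p = 0.0168, edgeR) and higher at IM24h (0.72) and IM72h (1.05). *Kitl*, the gene of stem cell factor, was higher at IM3h (0.44, adjusted p = 0.0105, edgeR) and lower at IM72h (-1.44, 3.63e-06). *Csf2* and *Il17a* were not listed in the *ME* table.

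Downstream of the CSF3 receptor, 8 of 9 signaling genes rose at IM3h (median log2 fold change 1.80), 5 of 9 at IM24h (0.62) and 6 of 9 at IM72h (0.63), with 2 of 9 lower at IM72h, *Jak2* (-0.88) and *Pim1* (-0.86). Of all genes tested 19.3%, 15.6% and 29.3% were called higher, and 28.3% lower at IM72h. *Socs3*, the inhibitor that ends signaling from this receptor and from gp130, stood at 10.5, 6.45 and 17.2 CPM in naïve *ME* and at 282, 422 and 405 CPM at IM3h, with edgeR log2 fold changes of 5.02 (adjusted p = 1.66e-06), 2.74 (0.00187) and 2.33 (7.97e-05). From IM3h to IM24h 5 of the 9 fell, where 13.4% of all genes tested did, and 0 rose, and *Socs3* fell by 2.20 (adjusted p = 0.00185, 1.06e-09 to 0.0325 over the alternatives, edgeR). These genes also carry the signals of other cytokines and are expressed in many cell types.

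On the side of the vessel wall, 4 of 6 adhesion genes rose at IM3h, 4 of 5 at IM24h and 4 of 6 at IM72h, where 19.3%, 15.6% and 29.3% of all genes tested did. The 5 endothelial markers summed to 30.1 to 31.0 CPM in naïve *ME*, 41.4 to 48.8 at IM3h, 46.2 to 63.0 at IM24h and 66.6 to 79.2 at IM72h, and their part in the adhesion genes was not tested. *Icam1*, the ligand of neutrophil integrins, rose by 4.73, 2.57 and 1.95 on the log2 scale, and *Selp*, which encodes P-selectin, by 4.82 at IM3h (adjusted p = 2.27e-04, edgeR), with 2.46 at IM24h (0.0759) and 1.65 at IM72h (0.0778). *Sele* was not listed. Of 7 partners that bind the products of *S100a8*, *S100a9* and *Lcn2*, 1 rose and 2 fell of 5 tested at IM3h, 1 rose and 1 fell of 5 at IM24h, and 2 rose and 4 fell of 6 at IM72h, where 13.4%, 13.4% and 28.3% of all genes tested were called lower. The calprotectin receptor *Tlr4* rose by 1.66, 2.68 and 1.53, whereas *Slc22a17*, a lipocalin-2 receptor, had -0.89 at IM3h and -1.89 at IM72h, both past the test, and -1.63 at IM24h, which was not. *Lrp2*, another lipocalin-2 receptor, had -2.36 at IM3h and -1.28 at IM72h, and *Bsg*, which encodes basigin, had -1.30 at IM24h and -0.40 at IM72h, all past the test. At IM72h *Cd36* had -1.59 and *Ager* 3.98, both past the test.

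**Figure D4:**
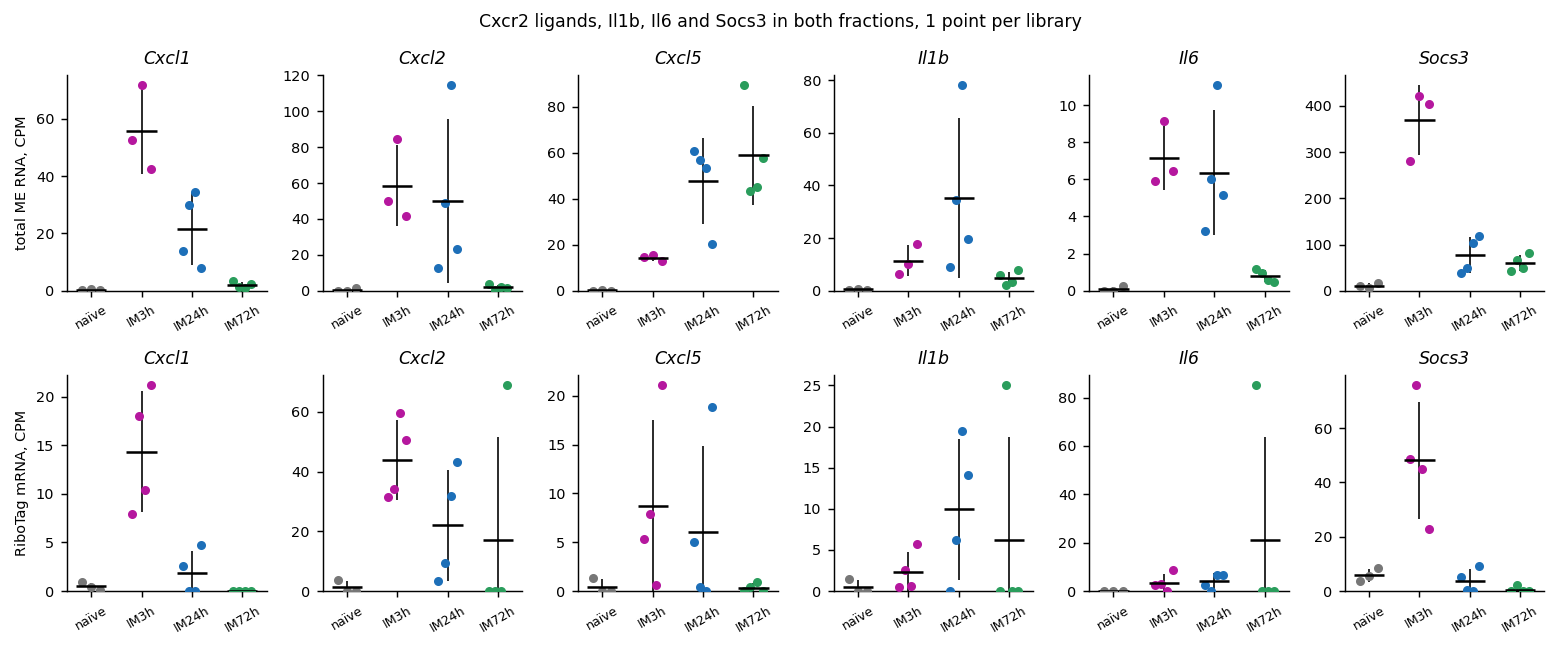
Levels in CPM of the *Cxcr2* ligands *Cxcl1*, *Cxcl2* and *Cxcl5* and of *Il1b*, *Il6* and *Socs3* in total ME RNA (top) and RiboTag mRNA (bottom), 1 point per library, with the mean as a bar and 1 SD as a line, cut at 0. In total ME RNA *Cxcl1* and *Socs3* are highest at IM3h and *Cxcl5* stays up at IM72h, and in RiboTag mRNA the IM3h libraries of *Cxcl1* and *Socs3* lie above those of every other time, while those of *Cxcl2* overlap IM24h and IM72h.

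In *RiboTag* mRNA, the fraction pulled down with tagged glial ribosomes, the same genes gave few counts. With all libraries of a comparison kept, edgeR called none of them against naïve or between times. At IM3h 2 of the 8 listed members passed the filter and 0 were called by edgeR, where 13.3% of all genes tested were called in either direction. 1 of them, *S100a9*, was higher at an unadjusted p under 0.05 and over 2-fold, as were 11.8% of all genes tested, and DESeq2 called 1, the same gene. At IM24h 3 were tested and 0 called (0.497% of all genes), with 1, *Cxcr2*, higher at an unadjusted p under 0.05 and over 2-fold (6.62% of all genes) and 0 by DESeq2. At IM72h 2 of the 6 listed were tested and 0 called (16.1% of all genes), with 0 at an unadjusted p under 0.05 and 0 by DESeq2.

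*S100a9* had 2, 6 and 0 counts in naïve *RiboTag* libraries and 13, 22, 28 and 89 at IM3h, or 0.996, 2.08, 3.23 and 8.27 CPM, all above naïve. Its mean was 11.8 times the naïve mean, or 6.82 times without IM3h library 4, which held 89 of the 152 counts, 28.9 times without naïve library 2 and 7.88 without naïve library 3 (log2 fold change 3.56, SE 1.44, unadjusted p = 0.0289, adjusted p = 0.131, edgeR), and the adjusted p ranged from 0.0298 with DESeq2 to 0.99999 with all groups in 1 fit. At IM24h its libraries had 0, 11, 0 and 176 counts and at IM72h 34, 6, 1 and 0, overlapping naïve. *S100a8* had 0 counts in all naïve libraries, 14, 5, 0 and 16 at IM3h and 32, 0, 0 and 14 at IM24h. Only *S100a9* at IM3h and *Lcn2* at IM24h had every library above every naïve library, 1 of 8 members each, against 14.3% and 6.68% of all genes tested, and at IM72h it was 0 of 6 against 2.84%.

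*Lcn2* had 32, 0 and 0 counts in naïve *RiboTag* libraries, 18, 15, 8 and 39 at IM3h, then 106, 31, 19 and 147 at IM24h, but 25, 110, 0 and 0 at IM72h. At IM3h the log2 fold change against naïve was 0.50 (adjusted p = 0.894, edgeR), and it was -0.070 to 7.23 with 1 library left out, the highest without naïve library 1. At IM24h the level was 13.3, 12.7, 8.40 and 27.97 CPM, above all naïve and all IM3h libraries. The log2 fold change against naïve was 3.60 (SE 1.70, adjusted p = 0.396, 0.157 to 0.765 over the alternatives, edgeR), and it was 9.525 (adjusted p = 0.201) without naïve library 1, which held all the naïve counts, and 2.99 without naïve library 2 or 3. From IM3h to IM24h it was 3.12 (SE 0.94, unadjusted p = 0.00524, adjusted p = 0.113, edgeR), with a range of 4.13e-04 with DESeq2 to 0.613 with all groups in 1 fit, and 0.0481 without IM24h library 3. In that step 4 of 8 were tested and 0 called by edgeR (1.84% of all genes), 2, *Cxcr2* and *Lcn2*, were higher at an unadjusted p under 0.05 and over 2-fold (6.82% of all genes), and DESeq2 called 1. *Lcn2* was the 1 of 8 members with every IM24h library above every IM3h library, against 4.54% of all genes tested.

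The receptors varied widely between libraries. *Cxcr2* had 0, 5 and 12 counts in naïve *RiboTag* libraries, 13, 10, 12 and 0 at IM3h, 25, 1, 110 and 14 at IM24h, and 0 in all 4 at IM72h. The log2 fold change at IM24h was 4.31 (SE 1.91, unadjusted p = 0.0422, adjusted p = 0.348, 0.230 to 0.726 over the alternatives, edgeR). Library 3 held 110 of the 150 counts of IM24h, and without it the change was 1.70 (adjusted p = 0.718, edgeR), or 5.48 (0.540) without naïve library 3. From IM24h to IM72h 2 of 6 members were tested and 0 called by edgeR, as were 0.0% of all genes, with 0 at an unadjusted p under 0.05 and 0 by DESeq2. The 2 tested were *Lcn2* (-0.087) and *Csf3r* (2.40, both adjusted p = 0.999, edgeR), and *Lcn2* had -1.88 (0.781) without IM72h library 2. *Csf3r* had 0.79 without IM72h library 1, which held 116 of its 156 counts there, and 3.05 without IM24h library 2. *Cxcr2* was the 1 of 6 members with all libraries below, against 7.68% of all genes tested. *Csf3r* had 23, 0 and 0 naïve counts, and 1, 0, 10 and 10 counts at IM3h. It had 0, 18, 1 and 32 counts at IM24h, then 116, 38, 1 and 1 at IM72h, and its groups overlapped throughout.

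*Csf3* was also present in the pulldown. It had 0 counts in the 3 naïve libraries, 9, 9, 0 and 0 at IM3h and 0, 19, 0 and 2 at IM24h, so that 2 of 4 libraries held counts at each time. At IM24h library 2 held 19 of the 21 counts, and the 2 counts left without it are under the floor of 3. At IM3h the level was at least 3.54-fold higher than that of 3 counts over the naïve group, or 2.35-fold without IM3h library 2 or naïve library 3 and 2.29-fold without naïve library 2. It did not pass the filter against naïve. *Mmp8* had counts in 1 library of IM3h (19), 1 of IM24h (21) and 2 of IM72h (18 and 16). *Retnlg* had 3, 0, 13 and 0 counts at IM3h, then 0, 24, 0 and 10 at IM24h, while 78 counts in library 2 were its only ones at IM72h. Both had 0 counts in all naïve libraries. No library was high in every member. Library 3 of IM24h, which held 110 *Cxcr2* counts, had 0 of *S100a8*, *S100a9* and *Csf3*, and library 4, which held 176 *S100a9* counts, had 14 of *Cxcr2*.

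**Figure D5:**
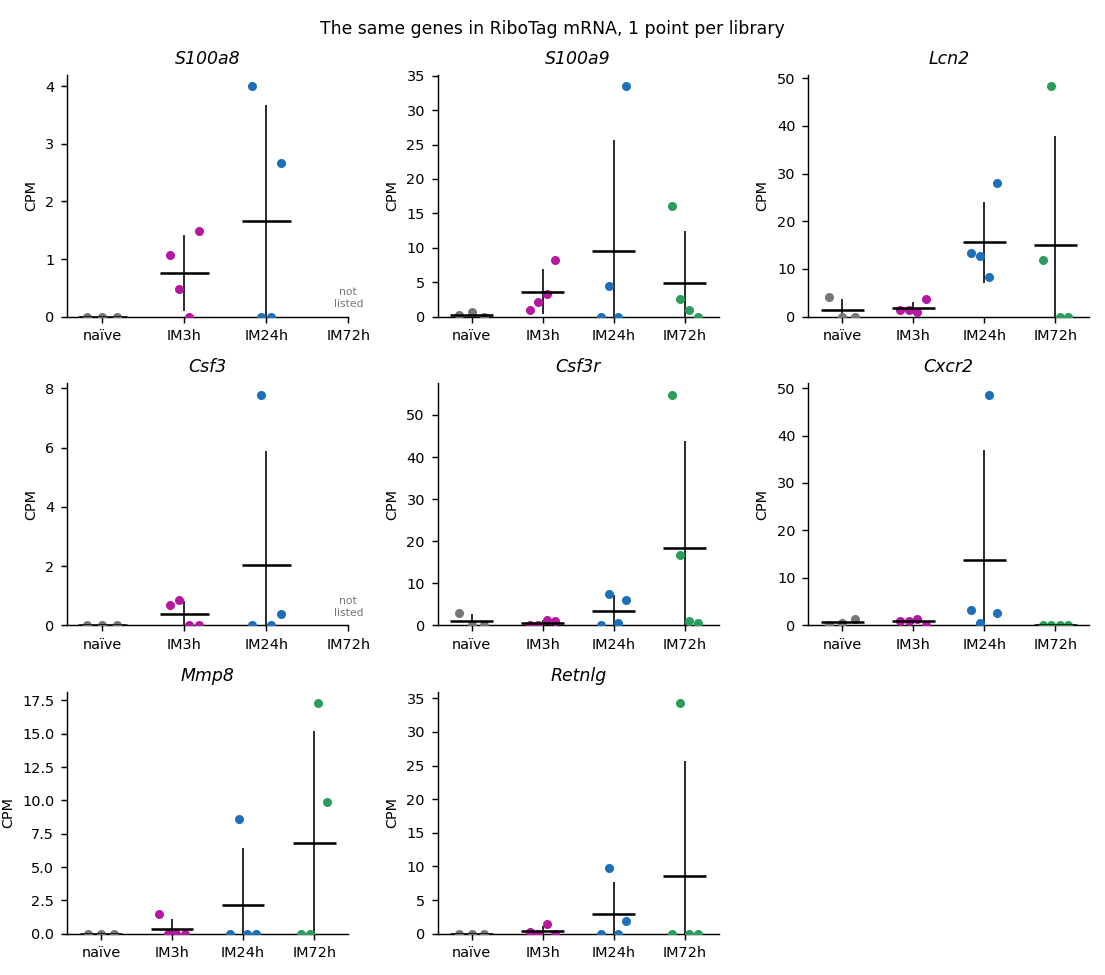
Levels in CPM of the 8 members listed in RiboTag mRNA, 1 point per library, in naïve (n = 3), IM3h, IM24h and IM72h (n = 4 each) mice, with the mean as a bar and 1 SD as a line, cut at 0. *S100a8* and *Csf3* are not listed at IM72h, and in most panels 1 or 2 libraries lie far above the others, which are at or near 0.

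Other genes of the same lists were called by edgeR in the pulldown at IM3h, though none of the 3 below in every alternative. *Cxcl1* went from 0.883, 0.448 and 0.117 CPM in naïve *RiboTag* libraries to 7.89, 17.96, 10.4 and 21.2 (log2 fold change 4.93, SE 0.76, adjusted p = 0.00153, 3.93e-09 to 0.891 over the alternatives, edgeR). *Cxcl2* had 3.66, 0.0 and 0.0 CPM in naïve and 31.6, 34.0, 59.7 and 50.5 at IM3h (5.25, SE 1.02, adjusted p = 0.00602, 1.19e-04 to 0.82, edgeR). *Socs3* had 3.53, 5.37 and 8.42 CPM in naïve and 48.6, 75.8, 44.9 and 23.0 at IM3h (3.11, SE 0.46, adjusted p = 0.00126, 7.25e-10 to 1, edgeR). The IM3h groups of these genes did not overlap naïve.

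Of the *Cxcr2* ligands 2 of 3 tested rose in *RiboTag* mRNA at IM3h, of the signals that induce *Csf3* 5 of 7 (*Cebpb*, *Cebpd*, *Il17ra*, *Myd88* and *Nfkbiz*), and of the genes downstream of its receptor 5 of 9 (*Jak1*, *Pim1*, *Socs3*, *Stat3* and *Stat5a*), against 8.86% of all genes called higher. The median log2 fold changes of the last 2 lists were 2.01 and 1.51, against -0.04 over all genes tested. The neutrophil surface list had 2 of 5 higher, *Itgam* (2.24, adjusted p = 0.0252, edgeR) and *Lilrb4a* (2.49, 0.0237), both shared with macrophages, and *Itgam* was again higher at IM24h (5.60, 0.0206) and IM72h (5.70, 0.0101). The granule list had 0 higher and 1 lower of 6 at IM3h, *Slpi* (-2.88, 0.0143), where 13.3% of all genes were called in either direction. At IM24h no gene of the ligand, signal and receptor lists passed the test.

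Markers of other cells were present in the pulldown too. The macrophage markers summed to 96.7 to 183 CPM in naïve *RiboTag* mRNA and to 220 to 595 at IM72h, smooth muscle markers to 4249 to 6428 CPM in naïve, and neutrophil markers to 1.52 to 5.68 CPM in naïve, 3.78 to 11.2 at IM3h, 8.38 to 49.1 at IM24h and 10.5 to 70.9 at IM72h, of which 7 of 10 were listed (6 at IM72h), with *S100a8*, *Retnlg* and *Mmp8* at 0 in naïve and *Cxcr2* and *Camp* at 0 at IM72h. Library 2 of IM72h stood apart, with 144 CPM of glial markers against 954 to 1454 in the other 3 libraries, 8338 against 1975 to 3344 of smooth muscle markers and 1005 against 217 to 438 of fibroblast markers. It held 110 *Lcn2*, 78 *Retnlg* and 38 *Csf3r* counts, and without it 0 members were called in *RiboTag* mRNA at IM72h against naïve or IM24h, as with it. The glial markers summed to 1289 to 2802 CPM at IM3h, 779 to 922 at IM24h and 144 to 1454 at IM72h. The part of RNA from other cells in the *RiboTag* values of the members was not tested.

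The fractions were then set against each other at the same time point, to ask where a member's level was higher. In naïve mice 0 of the 8 members listed in both fractions passed the filter, so that none could be called, where 26.1% of all genes tested were called in either direction. At IM3h 2 of 6 were lower in *RiboTag* mRNA, where 12.2% of all genes tested were called lower, and 0 were higher, where 11.8% were. Here and at IM24h, members with few *RiboTag* counts passed the filter mainly through *ME* libraries. This favours calls of lower, so these counts are descriptions. *Lcn2* had a difference of -2.77 on the log2 scale (SE 0.56, adjusted p = 0.00659, edgeR), and *S100a8* one of -3.05 (SE 0.92, adjusted p = 0.0391). The call of *S100a8* was lost with library totals (adjusted p = 0.0856), with scaling by *Actb*, *Hsp90ab1* and *Rplp1* (0.0688), without any 1 of the 3 *ME* libraries of IM3h (0.0853 to 0.169) and without *RiboTag* library 1 or 2 (0.0619 and 0.0833), within a range of 0.00821 to 0.169 over the alternatives. *S100a9* had -1.48 (adjusted p = 0.127, edgeR) and passed without *RiboTag* library 4 (-2.32, adjusted p = 0.00380, range 0.00380 to 0.322). *Mmp8* had -2.63 (0.233) and passed without *RiboTag* library 1 (-7.48, 0.0140, range 0.0140 to 0.456), the 1 library with its counts. For naïve mice and for IM3h the *ME* and *RiboTag* libraries also come from different Cre lines.

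At IM24h 1 of 7 was lower in *RiboTag* mRNA, where 6.06% of all genes tested were called lower. With an unadjusted p under 0.05 and over 2-fold it was 2, against 13.5% of all genes. The called gene was *Lcn2* again, with -2.87 (SE 0.49, adjusted p = 0.00472, 0.00314 to 0.0295 over the alternatives, edgeR). *S100a8* had -3.63 (SE 1.16, adjusted p = 0.0636, edgeR). It passed without *RiboTag* library 1 (-4.43, 0.0454) or 3 (-3.26, 0.0402, range up to 0.244). *S100a9* had -2.37 (0.265) and passed without library 4 (-5.29, 0.0434, range up to 0.514). *Mmp8* had 0.09 (0.979) and turned to -7.24 without *RiboTag* library 2, the 1 library with its counts (0.0444, range up to 0.991). At IM72h 0 of 4 tested were called by edgeR, where 29.6% of all genes tested were called in either direction, with 0 at an unadjusted p under 0.05. Leaving out any 1 of the 4 *RiboTag* libraries of IM72h gave 1 call, and without the filter *Cxcr2*, at 0 in those libraries, was called lower (adjusted p = 0.0161, 0.0161 to 0.0523 over the alternatives, edgeR). *Retnlg* had 1.07 (0.733) and turned to -8.55 without *RiboTag* library 2, the 1 library with its counts (0.00415, range up to 0.984). *Csf3r* there had 3.07 (SE 1.38, adjusted p = 0.148, edgeR), its *RiboTag* level resting on 2 libraries.

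The change after IM was also compared between the fractions by an interaction term. At IM24h and IM72h the *ME* change in this term cannot be told apart from the change of Cre line. At IM3h the fractions differ in Cre line. 0 of 6, 0 of 7 and 0 of 5 members tested differed at IM3h, IM24h and IM72h, where 1.66%, 0.542% and 23.6% of all genes tested did. At an unadjusted p under 0.05 and over 2-fold 1 member, *Lcn2*, had the smaller change in *RiboTag* mRNA at IM3h (5.21% of all genes) and again at IM24h (7.26%), and 0 members at IM72h, and only edgeR was run for this term. The interaction of *Lcn2* was -3.44 on the log2 scale at IM3h (SE 1.57, adjusted p = 0.323, 0.162 to 0.555 over the alternatives, edgeR) and -3.56 at IM24h (SE 1.32, adjusted p = 0.229, 0.0671 to 0.471). Both turned on naïve *RiboTag* library 1, the 1 naïve library with *Lcn2* counts, and were 3.18 and 2.91 without it. That of *S100a9* was -2.14, -3.04 and -2.34 at the 3 times, with adjusted p of 0.523, 0.606 and 0.446 in edgeR. It was -0.90, -1.80 and -1.14 without naïve *RiboTag* library 2. Without *RiboTag* library 4 of IM24h it was -5.98 at IM24h, and without *RiboTag* library 1 of IM72h it was -4.26 at IM72h. Of the other members tested, *Cxcr2* had -2.76 (SE 2.02) at IM3h and -1.32 (SE 1.95) at IM24h. Without naïve *RiboTag* library 3 these were -1.58 and -0.15, and without *RiboTag* library 3 of IM24h the latter was -3.91. *Csf3r* had -2.77 (SE 2.36) at IM24h and 0.41 (SE 2.81) at IM72h. *S100a8*, *Mmp8*, *Retnlg* and *Csf3* had 0 counts in every naïve *RiboTag* library, so the size of their interactions cannot be estimated. The fit gave *S100a8* -0.26 and -0.96 at IM3h and IM24h, and *Csf3*, at 0 in naïve *ME* too, -2.51 (SE 5253) at IM3h. It gave *Mmp8* 0.18, 2.76 (-4.36 without *RiboTag* library 2 of IM24h) and 5.56 at the 3 times. *Retnlg* had 3.34 and 3.66 at IM24h and IM72h. *Lcn2* had -2.14 at IM72h (-4.12 without *RiboTag* library 2 of IM72h, where *Retnlg* had -5.60). *Cxcr2* did not pass the filter for this term at IM72h, and without it had an adjusted p of 0.0399 (0.00601 to 0.0770 over the alternatives, edgeR), with the smaller change in *RiboTag* mRNA, where its IM72h libraries were at 0. With 1 library left out, 0 to 1 members were called at IM72h.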

How the data were processed

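Total *ME* RNA and *RiboTag* mRNA of mouse small bowel were sequenced as single-end QuantSeq 3′ libraries, and the authors aligned reads with STAR in Partek Flow to mm10 (tools per the submitters' processing notes, without versions there). The deposited tables hold estimated counts per gene (*ME*) or per transcript (*RiboTag*) as the authors quantified them, not normalized, and list features with a total of at least 10 counts. *RiboTag* transcripts were summed per gene by symbol, and a gene that a time's table does not list was left out of what rests on that table. A listed gene's transcripts missing from 1 table were taken as 0 there. Naïve *RiboTag* mRNA has 3 of its 4 labelled libraries in the tables.

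Estimated counts were rounded and tested with edgeR 4.0.16 (glmQLFit and glmQLFTest, two-sided, TMM, filterByExpr, R 4.3.3), with the groups of each comparison in the fit and Benjamini-Hochberg adjustment over all genes tested, at 0.05. RiboTag against *ME* levels and interactions used 1 model over both fractions. Alternatives were RLE normalization, library totals, scaling by 3 reference genes (*Actb*, *Hsp90ab1*, *Rplp1*), no filter, DESeq2 1.42.0 (not for fraction contrasts), all groups in 1 fit, and leaving out each library. The procedure was tested on simulated data. Library totals were 3010306 to 12866062 counts, and 3 counts over a group served as the floor for folds against groups at 0. Counting intervals (95%, exact, for the ratio of summed counts) cover counting error only. The rule for named genes took all 9 members in every comparison and leading genes of each pathway list, and a member given no value of its own in a comparison is in its counts only. The genes and lists were chosen with earlier results of these data known. Promoter sequences came from RefSeq (GRCm38.p6).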

Additional observations from a re-analysis of the deposited data

Results flagged for a closer look

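In groups of 4 libraries, 11 of 39 groups tested held a library that stood apart from the other 3 by Dixon's criterion. Its rate of about 1 in 20 groups by chance holds for normally distributed values. These are skewed CPM, often at 0, so that rate is no yardstick for them. In groups with most libraries at 0 the criterion marks any library with counts. In total *ME* RNA they were *S100a8* in library 1 of IM72h (9.23 CPM from 110 counts) and *Ngp* in library 3 of IM24h (0.909 CPM, 10 counts) and library 3 of IM72h (0.301 CPM, 4 counts). In *RiboTag* mRNA they were *S100a9* in library 4 of IM24h (33.5 CPM) and library 1 of IM72h (16.1 CPM), *Csf3* in library 2 of IM24h (7.79 CPM), *Cxcr2* in library 3 of IM24h (48.6 CPM), *Mmp8* in library 1 of IM3h (1.46 CPM) and library 2 of IM24h (8.61 CPM), and *Retnlg* in library 3 of IM3h (1.498 CPM) and library 2 of IM72h (34.3 CPM).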

How the results depend on the processing

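No paired analysis was possible because the library names in the tables carry no replicate numbers of the labels. Of 28 single-gene results past the threshold, with 376 alternative values, 353 values stayed past it in the same direction, 23 (4 results) lost it and 0 reversed. Of 51 not past it, with 726 values, 667 stayed so, 14 (8 results) passed it and 45 (19 results) changed sign. Of those 45, *Mmp8* in the levels at IM24h (-7.24, adjusted p = 0.0444, edgeR) and *Retnlg* in the levels at IM72h (-8.55, 0.00415), each without *RiboTag* library 2, were also past the threshold. Alternatives in which a gene did not pass the filter gave no value and are not counted here. Among them are those of *Csf3r* in *ME* from IM3h to IM24h without some IM24h libraries, where its call was lost.

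The number of members called in *ME* at IM3h was 7 without a filter and 7 with DESeq2, and from IM3h to IM24h 2 with reference genes. With an unadjusted p under 0.05 and over 2-fold it was 1, 1 and 2 in *RiboTag* at IM3h, IM24h and from IM3h to IM24h (DESeq2: 1 at IM3h and 1 in that step), 1 and 1 for the interaction at IM3h and IM24h, and 2 for the levels at IM24h. Without a filter it was 1 for the interaction and 1 for the levels at IM72h, and on library totals or reference genes 1 for the levels at IM3h. Leaving out 1 library gave 2 to 5 members in *ME* from IM3h to IM24h, 0 to 1 in *RiboTag* in that step, 0 to 1 for the interaction at IM72h, and 1 to 3, 1 to 2 and 0 to 1 for the levels at IM3h, IM24h and IM72h.

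Values that changed sign are log2 differences, none of them past the test in the fit given in the report. On library totals they were *Mmp8* in *ME* from IM3h to IM24h (0.51), the interactions of *S100a8* at IM3h (0.18) and *Csf3r* at IM72h (-1.38; -0.18 with reference genes), and the levels of *Cxcr2* at IM3h (0.16) and *Retnlg* at IM72h (-0.40). At IM24h the levels on library totals and reference genes were -0.49 and -0.70 for *Cxcr2*, -1.33 and -1.55 for *Mmp8* (-0.041 without a filter) and -0.58 and -0.80 for *Retnlg*. *Lcn2* in *RiboTag* from IM24h to IM72h had 0.12 with RLE and 0.12 with DESeq2. Leaving out 1 library gave *Lcn2* in *RiboTag* -0.070 to 7.23 at IM3h and -1.88 to 0.33 from IM24h to IM72h, and *S100a9* -1.29 to 2.21 from IM3h to IM24h. Interactions ranged at IM3h from -0.84 to 0.31 (*S100a8*), -4.04 to 3.18 (*Lcn2*) and -4.67 to 0.74 (*Mmp8*), at IM24h from -4.16 to 2.91 (*Lcn2*), -3.38 to 3.26 (*Csf3r*) and -4.36 to 3.32 (*Mmp8*), and at IM72h from -4.12 to 4.44 (*Lcn2*), -1.04 to 6.51 (*Csf3r*) and -5.60 to 4.19 (*Retnlg*). Levels ranged at IM24h from -1.16 to 0.12 (*Csf3r*), -1.85 to 1.31 (*Cxcr2*), -7.24 to 0.56 (*Mmp8*) and -1.45 to 1.32 (*Retnlg*), and at IM72h from -8.55 to 1.35 (*Retnlg*). The cause of these changes was not tested. With 0 to 32 counts per naïve library for every member in either fraction, low counts limit all folds against naïve.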
